A study of Rattus norvegicus with 30 samples.

Results

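Rat hearts that had been preconditioned before ischaemia were compared with hearts that met ischaemia unprotected. The preconditioned hearts were 5 labelled ischemic preconditioning (IPC) and 5 labelled anesthetic-preconditioning (APC), and the unprotected hearts were 5 labelled ischemia (ISCH), so 15 of the 30 arrays of the series entered the comparison itself. They were chosen by their titles alone, and the IPC and APC means were given equal weight, so that each value below is the mean of IPC and APC minus the mean of ISCH. Total RNA came from the left ventricle, 1 array per sample, with 5 biological replicates per protocol. Hearts without ischaemia (CTL, 5 arrays) served as a reference level, and the 2 remaining groups, IPC_TRI and APC_TRI (5 arrays each), had received a preconditioning trigger. The strain, age and sex of the rats, the anaesthetic, the length of each ischaemia and of any reperfusion, and whether the hearts were isolated are not stated in the labels. The 5 replicates, lettered a to e in the titles, are called arrays 1 to 5 of their group.

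Preconditioning is the protection of heart muscle by an earlier sub-lethal stress. In its ischaemic form short closures of a coronary artery precede the long one, and in its anaesthetic form a volatile anaesthetic is given beforehand. Both are thought to converge on G protein-coupled receptors, protein kinases and mitochondrial channels, and the measure of protection is usually less cell death after reperfusion. Cardiomyocytes fill most of the ventricle's volume, while fibroblasts, endothelium and mural cells make up most of its cell number and write the extracellular matrix. In RNA from whole tissue, fewer cells of a type and less RNA per cell cannot be told apart.

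Over the 2 preconditioned groups pooled, 10 genes had lower RNA levels than in unprotected ischaemic hearts, the fibrillar collagens Col3a1 and Col5a1 and the receptor Notch1 among them, and 11 had higher levels, among them the enzymes Fdft1, Alas1 and Glud1. Of 3155 genes tested, each read by its brightest probe set, 21 passed an adjusted p of 0.05 (0.666%), 10 of them lower (0.317%) and 11 higher (0.349%) after preconditioning. The lower genes were Col3a1, Fstl1, Rpl19l4, Notch1, Col5a1, Nrp1, Gpx3, Sparcl1, Npr1 and Cryaa. The higher genes were Fdft1, Pla2g5, G3bp2, Cnksr3, Alas1, Cdc42ep3, Ptpn3, Glud1, Casq2, Ccdc117 and Dyrk1a. The calls are of the mean of both groups. With each group alone against ISCH, Notch1 passed for both (limma's adjusted p 0.0472 for IPC and 0.0208 for APC). Col5a1 passed for IPC only (0.0337). Nrp1 (0.0208, with 0.326 for IPC) and Rpl19l4 (0.0427) passed for APC only. The other called genes passed for neither, among them Col3a1 (0.214 for IPC, 0.0784 for APC) and Npr1 (0.108 and 0.159). Counted as probe sets, the short oligonucleotide groups that the array reads as 1 value, 44 of 5244 passed (0.839%), 15 higher (0.286%) and 29 lower (0.553%), and 779 had an unadjusted p under 0.05 (14.9%). The tests were limma's moderated tests on quantile-normalised log2(signal + 16), with Benjamini-Hochberg adjustment over all 5244 probe sets. A change is given on that log2 scale as the difference ± its standard error (SE), and a signal is the deposited linear value in arbitrary units. The median change of all 3155 genes was 0.02. Dividing each array by its median instead of quantile normalising moved the median of all probe sets to 0.10 and called 45 probe sets higher and 21 lower, so the balance of the 2 directions rests on the scaling.

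**Figure D1:**
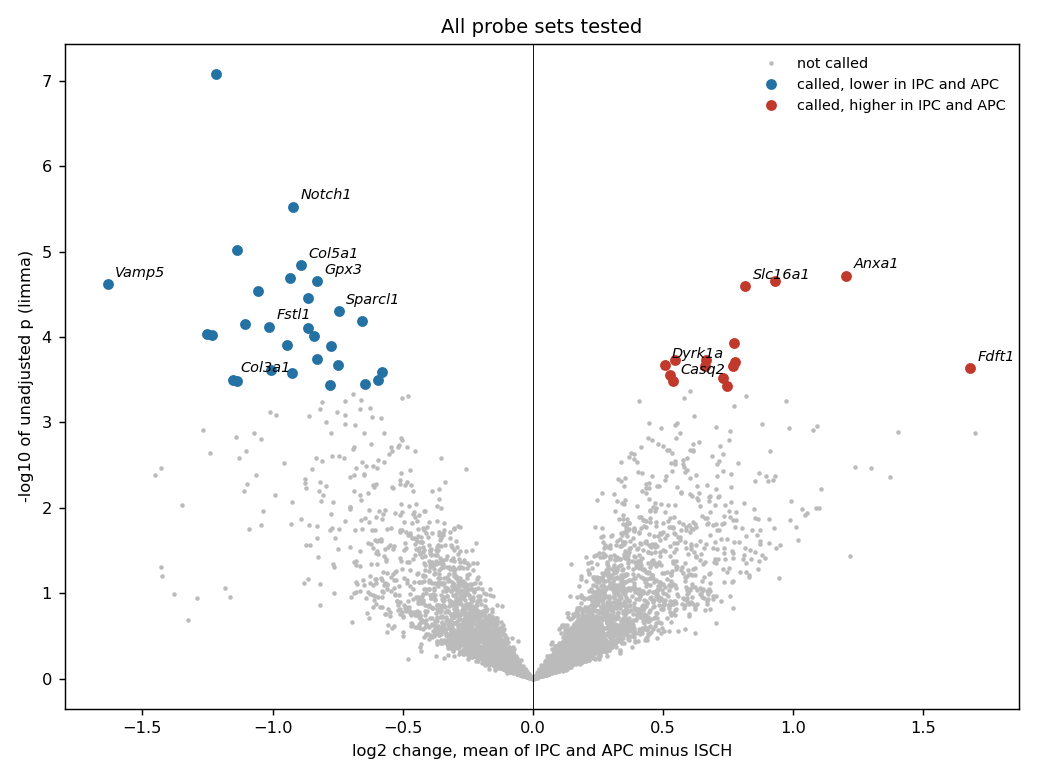
Change of each of the 5244 probe sets (horizontal axis, log2, mean of IPC and APC minus ISCH) against -log10 of its unadjusted limma p (vertical axis). The 44 that passed the adjusted threshold are coloured, 29 lower in blue and 15 higher in red, with some gene symbols; the called changes are between 0.51 and 1.68 in size.

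Several arrays stood apart, and this bears on every count. The bacterial spike-in probe sets, whose signal follows the hybridisation cocktail and the scaling rather than the tissue, had a mean log2 signal of 12.02 ± 0.61 on ISCH arrays (11.1 to 12.8) and 10.86 ± 0.33 on the 10 preconditioned arrays (10.4 to 11.5), which differed in a 2-sided exact permutation test (p = 0.00133, adjusted over 5 quality measures 0.00333). Signal was also more concentrated on ISCH arrays, where 37.1 ± 4.16% of it came from the brightest 1% of probe sets, beside 30.1 ± 2.40% on preconditioned arrays (exact permutation p = 0.00133, adjusted 0.00333). The median deposited signal was 137.8 ± 10.7 on ISCH arrays and 123.6 ± 10.5 on preconditioned arrays (exact permutation p = 0.040, adjusted 0.0666). The actin and Gapdh 3′ to 5′ ratios, a sign of RNA breakdown, gave adjusted exact permutation p-values of 0.518 and 0.751. When limma was given each array's spike signal as a covariate, it called 0 probe sets, and 357 had an unadjusted p under 0.05. All 44 called probe sets then had the same sign, 39 of them with an unadjusted p under 0.05. The 44 had been chosen by their changes on these same arrays, so neither count is separate support for them. Among the 44 the median ratio of a change with the covariate to the change without it was 0.951, with a range from 0.488 to 1.31. The changes of Npr1, Fdft1, Glud1, Slc16a1, Casq2, Dyrk1a and G3bp2 shrank by more than 1.5 times, as given at each gene. The spike signal differed with the groups, and its part in the results cannot be told apart from theirs. IPC array 5 had the highest spike signal of the preconditioned arrays (11.5). Without it 163 probe sets and 88 genes were called, all 44 among them, and without both it and ISCH array 1, which had the lowest weight of all 15 when arrays were weighted by their fit, 112 probe sets and 63 genes were called.

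**Figure D2:**
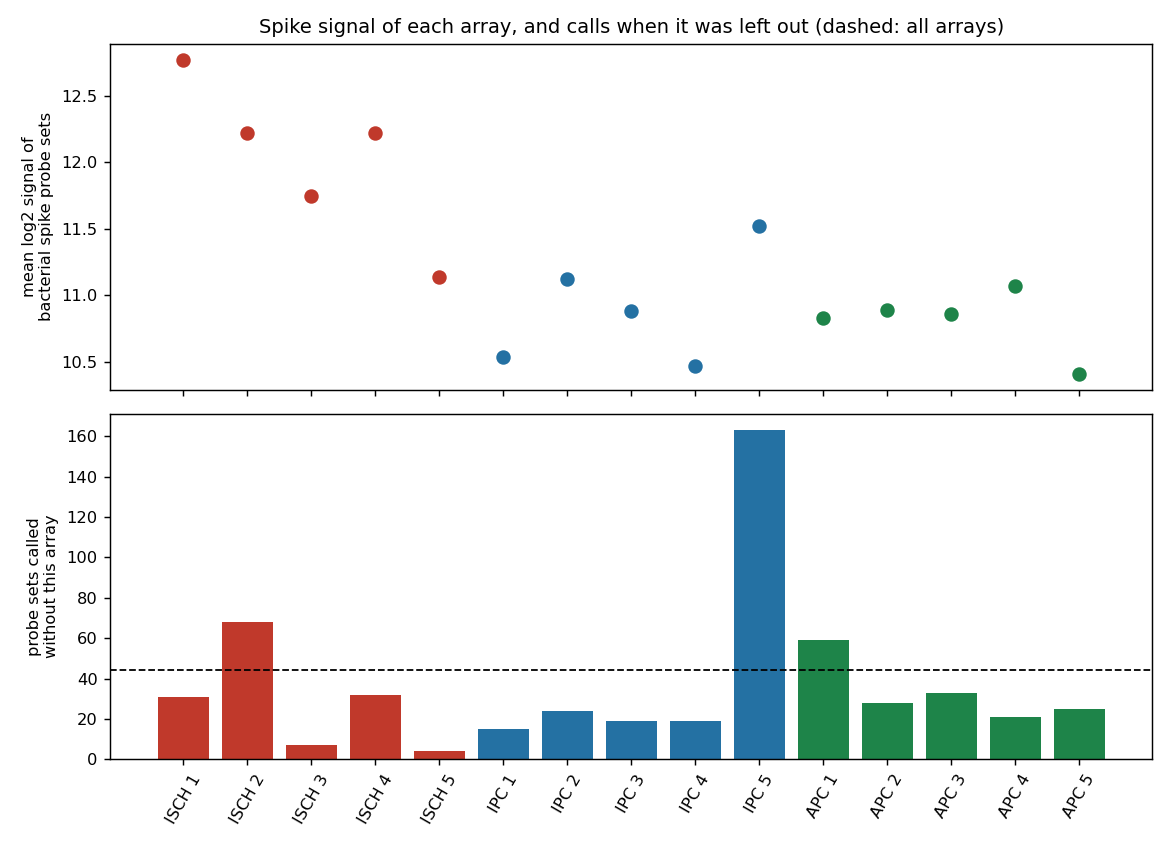
The upper panel plots the mean log2 signal of the bacterial spike probe sets on each of the 15 arrays, ISCH in red, IPC in blue and APC in green. The lower panel plots how many probe sets were called when that array was left out, against 44 with all arrays (dashed line): 163 without IPC 5, 7 without ISCH 3 and 4 without ISCH 5.

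The calls were few enough to depend on single arrays. Leaving out 1 array at a time gave from 4 called probe sets (without ISCH 5) to 163 (without IPC 5). The count moved by more than 1.5 times also without ISCH 2 (68), ISCH 3 (7), IPC 1 (15), IPC 2 (24), IPC 3 (19), IPC 4 (19), APC 2 (28), APC 4 (21) and APC 5 (25). Counted as genes, the range was 1 (without ISCH 5) to 88 (without IPC 5). Among the 21 genes Notch1 alone was called with each of the 15 arrays left out. Col5a1 kept its call in 14 of these 15 fits, Sparcl1 in 12, Fstl1 in 11, Nrp1 and G3bp2 in 8, and the other 15 genes in 3 to 6. No called probe set changed sign in any of these 15 fits, which their choice by the size of the change on the same arrays made likely beforehand.

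Markers of ventricular cardiomyocytes were looked at for the presence of heart muscle, not to tell ventricle from atrium. All 12 of those on the array passed the filter on low values, and Myh6, the fast cardiac myosin heavy chain, had a mean signal of 35588 on ISCH arrays and 29932 on preconditioned arrays. Their median change was 0.14 with quantile normalisation, -0.23 on the values as deposited and -0.09 after median centring, so no direction is given for them.

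Fibrillar collagens are built from chains of types I, III and V, which fibroblasts secrete, and Col5a1 encodes the type V chain that starts fibril assembly and limits fibril width. On ISCH arrays 1 to 5 Col5a1 had signals of 1562, 1378, 1698, 2251 and 1839. On IPC arrays they were 657, 847, 813, 778 and 1482, and on APC arrays 889, 1029, 1401, 815 and 998. The ISCH arrays were high except that IPC 5 and APC 3 reached into their lower end, while the other 8 preconditioned arrays were all below ISCH. CTL hearts had 830.2 ± 177 (SD, n = 5), near the preconditioned mean of 971 ± 270.3 (SD, n = 10) and below the ISCH mean of 1746 ± 329.8. Col5a1 fell by 0.89 on the log2 scale (-0.89 ± 0.17 SE, 1.85-fold lower, limma adjusted p = 0.0132), and the call ended without ISCH array 5.

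Type III collagen, the chain of thin, extensible fibrils, followed the same order of groups. Col3a1 signals on the ISCH arrays were 6400.3, 5145, 9913, 11259 and 8123. Those on the IPC arrays were 3436, 2335, 3625, 3524 and 8048, and on the APC arrays 4876, 2626, 3878, 1926 and 4128. IPC 5 lay within the ISCH range and every other preconditioned array lay below the lowest ISCH array. The change was -1.15 ± 0.28 (2.22-fold lower, limma adjusted p = 0.0417), and a second, dimmer probe set gave -1.01 ± 0.27 with an adjusted p of 0.0654. For Col3a1 12 of the 15 fits with 1 array missing lost the call, which held without IPC 5 (-1.28, adjusted p = 0.00615).

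A pair of secreted glycoproteins was lower as well. Fstl1, a follistatin-like protein secreted by stromal cells and heart muscle, had signals of 2686, 1409, 2239, 1988 and 2189 on ISCH arrays, 923, 704, 1115, 944 and 2074 on IPC arrays and 1007, 918, 1289.5, 649.6 and 1221 on APC arrays. ISCH 2 was the lowest ISCH array and IPC 5 the one preconditioned array inside the ISCH range. Fstl1 changed by -1.01 ± 0.22 (adjusted p = 0.0241), and its dimmer probe set by -0.46 ± 0.19 (adjusted p = 0.25). Sparcl1, a matricellular protein related to SPARC, had signals of 6471, 3585, 4523, 4284 and 4531 on ISCH arrays, 2190, 2812, 2792, 2384 and 3736 on IPC arrays and 3506, 3361, 3726, 1769.8 and 2874 on APC arrays. IPC 5 and APC 3 overlapped the lowest ISCH array, and the highest value, on ISCH 1, had no counterpart elsewhere. Its change was -0.75 ± 0.16 (adjusted p = 0.0203), and without ISCH 1 it was -0.61 and no longer called. The call also ended without ISCH 3 and without ISCH 5.

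Type I collagen and decorin passed on dimmer probe sets only, outside the rule of 1 probe set per gene, and are named here after their values were seen. Col1a1, the main chain of stiff collagen fibrils, was called on 2 of its 4 probe sets, by -1.11 ± 0.24 (adjusted p = 0.0241) and -1.14 ± 0.28 (adjusted p = 0.0417). On the first of these the ISCH arrays read 6584, 2441, 4012, 3595 and 3864, the IPC arrays 1416, 1714, 1772, 1561 and 3600.2 and the APC arrays 2108, 1764, 2528, 1132 and 1979. Its brightest probe set gave -0.93 ± 0.33 (adjusted p = 0.176), and the changes of all 4 lay between -1.14 and -0.77. Dcn, a small proteoglycan that coats collagen fibrils, was called on 1 of 4 probe sets, by -0.66 ± 0.14 (adjusted p = 0.0241), while the other 3 gave -0.51, -0.23 and -0.09 and did not pass.

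**Figure D3:**
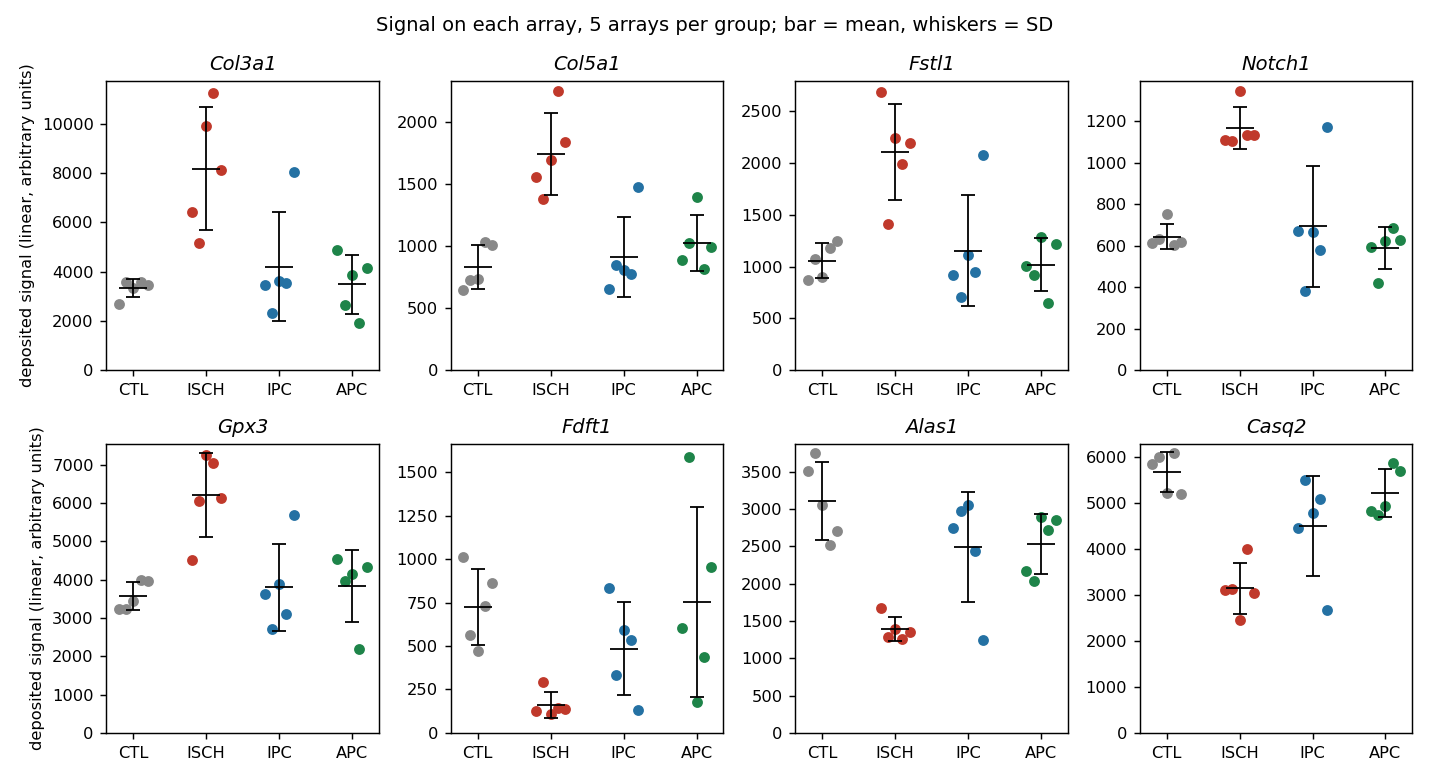
Deposited signal (linear, arbitrary units, axes from 0) of 8 genes on each array of CTL, ISCH, IPC and APC, 5 arrays per group, with the mean as a bar and the SD as whiskers. For Col3a1, Col5a1, Fstl1, Notch1 and Gpx3 the ISCH arrays lie above most others and IPC array 5 lies among or near them; for Fdft1, Alas1 and Casq2 ISCH lies below most others.

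A list of genes of fibroblasts and of the extracellular matrix shows how far the pattern went. Of its 51 genes 37 were on the array and 36 were tested: 2 fell (Col3a1 and Col5a1), 0 rose and 34 did not pass. Of all genes 0.317% were called lower and 0.349% higher, and these shares stand beside the main counts of every list below. The list's median was -0.46 against 0.02 for all 3155 genes, and 28 of 36 changes were below 0, against 47.8% of all genes. Among those that did not pass, vimentin (Vim), an intermediate filament of mesenchymal cells, gave -0.72 ± 0.19 (adjusted p = 0.0676). Leaving out IPC 5 called 10 of the 36 lower and 0 higher, where 46 of 3156 genes (1.46%) were then called lower: Col5a1, Bgn, Col3a1, Mmp2, Col1a2, Vim, Pdgfra, Dcn, Col15a1 and Col5a2, named after their values were seen. IPC 5 scored within the ISCH range on this list (0.50), so its removal was bound to widen the difference from ISCH. Calls without IPC 5, here and below, are therefore no separate support for a pattern. Without ISCH 3 only 2 of all genes were called, and without ISCH 5 only 1. Leaving out ISCH 1 called 1 of 35 lower (Col5a1, beside 0.19% of all genes), leaving out both arrays 7 of 35 (beside 0.952%), and median centring 1 of 36 (beside 0.127%). The list's median lay between -0.58 (without ISCH 2) and -0.34 (without ISCH 4) with 1 array left out, and at -0.39 after median centring.

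A score of the list, the mean of its genes' log2 values relative to CTL, set the arrays apart from each other. ISCH arrays 1 to 5 scored 0.59, -0.05, 0.41, 0.50 and 0.44. IPC arrays scored -0.15, -0.14, 0.03, -0.04 and 0.50, and APC arrays 0.10, -0.03, 0.0041, -0.24 and 0.03. ISCH 2 was thus as low as preconditioned hearts and IPC 5 as high as ISCH hearts, and the remaining arrays did not overlap. The 12 fibroblast markers tested behaved alike: all 12 changes were below 0 and the median was -0.61. Of them 2 passed, again Col3a1 and Col5a1, which are on both lists, beside 0.317% of all genes called lower. The summed signal of the 12 ran from 76526 to 98909 on ISCH arrays and from 39492 to 98518 on preconditioned arrays. IPC 5 again scored within the ISCH range (0.98). Pdgfra, Vim and other members are shared by these lists, so the second is no separate evidence. Whether the matrix change followed the number of fibroblasts was not tested.

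Genes of contractile smooth muscle and myofibroblasts gave less. Of 12 tested, 0 passed, and the median was -0.07, which ran from -0.27 (without ISCH 2) to 0.02 (without ISCH 5) with 1 array left out and down to -0.52 under the other settings. Tagln, an actin-binding protein of smooth muscle, gave -1.04 ± 0.30 (adjusted p = 0.0877), Tpm4, a cytoskeletal tropomyosin, -0.52 ± 0.15 (0.0943), and desmin (Des), which cardiomyocytes also express, 0.35 ± 0.12 (0.14). Without IPC 5 Tagln, Tpm4 and Acta2 were called lower and Des higher, 3 and 1 of 12, where 1.46% of all genes were called lower and 1.33% higher (names given for fits without IPC 5, here and below, were chosen after their values were seen). Without ISCH 1 0 of the 12 were called, and without both arrays Tagln alone. The overlapping list of 7 smooth muscle and pericyte markers had a median of -0.36, which was below 0 in every alternative. Of 17 genes of TGF-beta signalling, the pathway that drives collagen synthesis in fibroblasts, 0 passed, with a median of -0.03 that changed sign in 7 alternatives. Smad7, its inhibitory Smad, gave 1.40 ± 0.40 with an adjusted p of 0.0802. Without IPC 5 Smad7 was called higher and Dcn lower, and without ISCH 1 or without both arrays 0 of the 17 were called.

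Notch1 is a receptor that is cut on binding a ligand of a neighbouring cell and then acts on transcription in the nucleus. Its signals were 1113, 1106, 1347, 1133 and 1136 on ISCH arrays, 673, 381, 664, 578 and 1172 on IPC arrays and 593, 421, 624, 684 and 627 on APC arrays. IPC 5 lay within the narrow ISCH range, and the other 9 preconditioned arrays were all below it. The mean of 642 ± 213 (SD, n = 10) was that of CTL hearts (645 ± 61.1, n = 5). Notch1 fell by 0.92 on the log2 scale (-0.92 ± 0.16, 1.89-fold lower, limma adjusted p = 0.0078), the smallest p among named genes, and by 1.03 without IPC 5. A dimmer probe set of the same transcript gave -0.50 ± 0.19 and did not pass (adjusted p = 0.198). Of 11 genes of the Notch pathway tested, Notch1 alone was called (1 lower, 0 higher, median -0.05), beside 0.317% of all genes called lower. The ligand Jag2 gave -0.39 ± 0.18 (adjusted p = 0.288) and Adam10, a protease that cuts Notch receptors, 0.25 ± 0.21 (0.642).

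The promoters of Notch1 and Col5a1, the 2 lower genes whose calls were steadiest when arrays were left out, are shown as examples. They are RefSeq sequences of the GRCr8 assembly, from 250 bases before to 50 after the gene's start, in the direction of the gene, with each GGGCGG in capitals, a GC box that Sp1-type factors bind. Notch1 lies at chr3:29721564-29721863 on the minus strand and holds 4 matches, and Col5a1 at chr3:31606630-31606929 on the plus strand holds 1.
Notch1: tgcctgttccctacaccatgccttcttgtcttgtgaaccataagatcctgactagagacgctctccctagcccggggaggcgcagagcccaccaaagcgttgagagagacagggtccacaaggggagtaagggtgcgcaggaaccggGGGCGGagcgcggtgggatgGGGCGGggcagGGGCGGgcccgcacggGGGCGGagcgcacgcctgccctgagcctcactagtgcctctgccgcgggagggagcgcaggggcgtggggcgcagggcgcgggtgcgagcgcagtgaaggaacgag
Col5a1: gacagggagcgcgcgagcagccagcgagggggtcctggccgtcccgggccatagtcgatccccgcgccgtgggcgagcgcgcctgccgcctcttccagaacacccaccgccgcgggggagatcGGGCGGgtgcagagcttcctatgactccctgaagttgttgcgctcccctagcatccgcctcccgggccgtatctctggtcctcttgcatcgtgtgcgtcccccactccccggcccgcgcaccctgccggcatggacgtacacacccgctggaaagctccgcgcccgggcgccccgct
GGGCGG or its reverse complement CCGCCC was present in 33.1% of 33469 promoters of that table, in 5 of the 8 lower genes with an entry (of 10) and in 4 of the 8 higher ones (of 11). CCAAT or ATTGG was in 37.5% of all promoters, 3 of the 8 lower and 2 of the 8 higher, and TATAAA or TTTATA in 14.2% of all and in 0 of either. A match describes the letters only.

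Nrp1, neuropilin 1, is a co-receptor for semaphorins and for vascular endothelial growth factor on endothelial and other cells. Signals were 750.3, 929, 1817, 1124 and 1074 on ISCH arrays, 669, 815, 749.8, 589 and 1129 on IPC arrays and 686, 474, 569.9, 383 and 495 on APC arrays. APC arrays were all below the lowest ISCH array, while IPC 2 and IPC 5 lay within the ISCH range and IPC 3 at its lower edge. The pooled change was -0.78 ± 0.18 (adjusted p = 0.0287), made of -0.51 for IPC and -1.05 for APC. It was -0.60 and not called without ISCH 3, and 7 of the 15 fits with 1 array missing lost the call. Of 10 genes of axon guidance and VEGF receptors tested, Nrp1 alone was called (median -0.22), beside 0.317% of all genes called lower. The VEGF ligand Vegfb gave 0.38 ± 0.11 (adjusted p = 0.0992) and the netrin receptor Unc5b -0.50 ± 0.15 (0.0879). The list's median turned to 0.08 with the spike covariate.

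Npr1, the guanylyl cyclase receptor of the natriuretic peptides, had signals of 939, 625, 622, 730.1 and 600.2 on ISCH arrays, 367, 393, 419.9, 399 and 645 on IPC arrays and 595, 469, 539, 428 and 347 on APC arrays. IPC 5 lay just inside the ISCH range and the other 9 preconditioned arrays below it, with ISCH 1 far above the rest. The change was -0.60 ± 0.15 (adjusted p = 0.0417), and -0.49 and not called without ISCH 1. In all, 11 of the 15 fits with 1 array missing lost the call. With the spike covariate the change was -0.34. Dimmer probe sets of Npr1 gave -0.20 and -0.35, neither past the threshold.

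Gpx3 encodes plasma glutathione peroxidase, a secreted selenoprotein that reduces peroxides, and was called on both of its probe sets. On the brighter one signals were 4511, 6044, 7267, 7059.9 and 6142 on ISCH arrays, 3625, 2716, 3877, 3094 and 5676 on IPC arrays and 4538, 3976, 4160.1, 2203 and 4330.3 on APC arrays. IPC 5 and APC 1 were above ISCH 1, the lowest ISCH array, and the rest did not overlap. The dimmer one had 2513, 2077, 2025, 2092 and 1969.7 on ISCH arrays against 929 to 1562 over the 10 preconditioned arrays, with no overlap. The changes were -0.75 ± 0.18 (adjusted p = 0.0369) and -0.83 ± 0.17 (adjusted p = 0.0132). Of 34 antioxidant genes and Nrf2 targets tested, Gpx3 alone was called, beside 0.317% of all genes called lower, and the median was 0.02. Txnip, an inhibitor of thioredoxin, gave -0.77 ± 0.23 (adjusted p = 0.103) and Gsta1, a glutathione transferase, -0.60 ± 0.19 (0.114).

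Cryaa, the alpha-A crystallin, a small heat shock protein best known from the lens, was the 1 called gene whose 10 preconditioned signals all lay below all 5 ISCH signals; 11 of all 3155 genes did so (0.349%). Its ISCH signals were 634, 617, 682, 612 and 638, the IPC signals 469.6, 429, 361, 448 and 434 and the APC signals 520.2, 416, 285, 367 and 473. The ISCH arrays lay within a narrow band, and CTL hearts, with 644, 354, 588, 430.3 and 553, spanned both groups. The change was -0.58 ± 0.14 (1.5-fold lower, adjusted p = 0.0396), and 12 of the 15 fits with 1 array missing lost its call. Of the 21 heat shock protein genes tested, a list without Cryaa, 0 passed and the median was 0.07.

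Rpl19l4, read by a probe set annotated to a member of the Rpl19 family whose copies it may not tell apart, had signals of 739, 1731, 2599, 2200.2 and 2776 on ISCH arrays, 745, 1146, 840.5, 1106 and 1897 on IPC arrays and 712, 849, 605, 838 and 821 on APC arrays. ISCH 1 was as low as the preconditioned arrays and IPC 5 reached the ISCH range. The change was -1.01 ± 0.24 (adjusted p = 0.0388), and 11 of the 15 fits with 1 array missing lost the call. Of 37 cytosolic ribosomal protein genes 0 passed, with 34 of 37 changes below 0 and a median of -0.18 that moved to -0.05 after median centring. Rpl17 gave -0.81 ± 0.21 (adjusted p = 0.055) and Rpl3 -0.48 ± 0.14 (0.0943).

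The largest fall among the called probe sets was on a dimmer probe set of Vamp5, a vesicle membrane protein of muscle, which is named after its values were seen. Its ISCH signals were 321, 254, 192, 290.1 and 214, against 158, 51, 42.4, 44.8 and 60.4 for IPC and 73.8, 104, 60.4, 51.9 and 32.6 for APC, with no overlap between ISCH and the preconditioned arrays. The change was -1.63 ± 0.33 (3.1-fold lower, adjusted p = 0.0132), but the brighter Vamp5 probe set gave -0.12 ± 0.26 (adjusted p = 0.878), so the 2 probe sets disagree on the gene. Another 14 lower probe sets carried no single gene symbol and are unnamed here; 5 of them had identifiers with the stem M13100 and changes from -1.22 to -0.78. The 1 unnamed probe set that rose, rc_AA799679_at, changed by 0.93.

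Fdft1 is squalene synthase, the enzyme that commits isoprenoids to cholesterol synthesis. Its signals were 124, 292, 109, 144 and 136 on ISCH arrays, 833, 333, 590.3, 536 and 134 on IPC arrays and 602, 1589, 180, 436 and 953 on APC arrays. ISCH arrays were low apart from ISCH 2, IPC 5 and APC 3 were as low as they, and the APC arrays spread widely. The change, 1.68 ± 0.40 (3.21-fold higher, adjusted p = 0.0382), was the largest rise among the called probe sets. Yet the other 3 probe sets of Fdft1 gave 0.75, -0.11 and 0.10, none past the threshold. With the spike covariate the change was 1.06. Of 16 genes of cholesterol and lipid synthesis Fdft1 alone was called, beside 0.349% of all genes called higher. The list's median was 0.12, or -0.08 with that covariate. Gpam, which starts triglyceride synthesis, gave 1.70 ± 0.48 (adjusted p = 0.0802), and Lss, lanosterol synthase, gave -0.40 ± 0.23 (0.425).

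Alas1 makes 5-aminolevulinate, the first and rate-limiting step of haem synthesis. Signals were 1676, 1287, 1388, 1259 and 1355 on ISCH arrays, 2747, 2968, 3053, 2432 and 1247 on IPC arrays and 2167, 2030.4, 2891, 2716 and 2850.2 on APC arrays. IPC 5 was the lowest array of all and every other preconditioned array was above all ISCH arrays. Alas1 rose by 0.73 ± 0.18 (1.66-fold, adjusted p = 0.0417), while its dimmer probe set gave 0.20 ± 0.20 (adjusted p = 0.678).

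Glud1, the mitochondrial enzyme that turns glutamate into alpha-ketoglutarate, had signals of 1253, 1349, 1286, 1686 and 1382 on ISCH arrays, 1873, 2565, 2198, 2364 and 1423 on IPC arrays and 1812, 2310.1, 2542, 2098 and 2259 on APC arrays. IPC 5 lay within the ISCH range and the other 9 preconditioned arrays above it. The change was 0.55 ± 0.13 (adjusted p = 0.0369), and 0.31 with the spike covariate. Its second-brightest probe set had no overlap between groups, 323, 579.9, 462, 513 and 521 on ISCH arrays against 582 to 754, and gave 0.49 ± 0.14 (adjusted p = 0.0787), and its dimmest gave -0.27.

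Slc16a1 encodes monocarboxylate transporter 1, which carries lactate and pyruvate across the cell membrane. It passed on its dimmer probe set and is named after its values were seen. That probe set read 664, 792, 561, 676 and 647 on ISCH arrays, 1605, 1459, 1414, 1065 and 977 on IPC arrays and 1129, 907, 1467, 1057 and 1253 on APC arrays, with every preconditioned array above every ISCH array. The change was 0.82 ± 0.16 (1.76-fold higher, adjusted p = 0.0132), or 0.49 with the spike covariate, and the brighter probe set gave 0.82 ± 0.21 with an adjusted p of 0.0535, just short of the threshold.

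The lists of fuel pathways held 0 calls, where 0.349% of all genes were called higher and 0.317% lower. In lists this short 0 calls does not set them apart. For the citric acid cycle with pyruvate dehydrogenase 0 of 20 genes passed, while 19 of 20 changes were above 0, against 52.2% of all genes, with a median of 0.31. Pdk1, a kinase that inhibits pyruvate dehydrogenase, gave 0.60 ± 0.18 (adjusted p = 0.097), Got2, the mitochondrial aspartate aminotransferase, 0.39 ± 0.12 (0.0999), and Pdhb, a subunit of pyruvate dehydrogenase, 0.40 ± 0.12 (0.108). Relative to CTL the list's score was -0.30, -0.33, -0.59, -0.35 and -0.42 on the ISCH arrays, -0.08, 0.12, -0.13, -0.04 and -0.44 on IPC arrays and from -0.15 to -0.06 on APC arrays. IPC 5 thus sat with the ISCH arrays and the other 9 above them. Of 38 genes of fatty acid oxidation 0 passed (median 0.12), with Bdh1, a ketone body enzyme, at 0.76 ± 0.21 (adjusted p = 0.0802) and Acot2, a mitochondrial acyl-CoA thioesterase, at 1.30 ± 0.41 (0.114). Of 24 genes of glucose transport and glycolysis 0 passed (median 0.17), with Pfkm, the muscle phosphofructokinase, at 0.41 ± 0.11 (adjusted p = 0.0549). Without IPC 5, where 1.33% of all genes were called higher, Got2 and Pdk1 were called higher among the 20, Bdh1 among the 38 and Slc16a1 and Pfkm among the 24. Without ISCH 1 (0.254% of all genes) these were Got2, Cpt2 and Pfkm, 1 in each list, and without both arrays (1.05%) Got2 and Got1, Cpt2, and Pfkm. Of 39 genes of oxidative phosphorylation 0 passed, and the median, 0.09, turned to -0.03 on the values as deposited.

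Casq2, cardiac calsequestrin, binds calcium inside the sarcoplasmic reticulum. Its signals were 3108, 3124, 2453, 4010.4 and 3047 on ISCH arrays, 4467, 5509, 4786, 5101 and 2686 on IPC arrays and 4844, 4752, 4937, 5888 and 5697 on APC arrays. All 5 APC arrays and 4 IPC arrays were above every ISCH array, and IPC 5 was below 4 of them. CTL hearts had 5680.1 ± 436 (SD, n = 5). Casq2 rose by 0.54 ± 0.13 (1.45-fold, adjusted p = 0.0417), or by 0.31 with the spike covariate, and 12 of the 15 fits with 1 array missing lost the call. Of 43 genes of calcium handling and ion channels Casq2 alone was called, beside 0.349% of all genes called higher, and the list's median was 0.03. Phospholamban (Pln), the brake on the calcium pump, gave 0.35 ± 0.13 (adjusted p = 0.217) and the potassium channel Kcnj8 gave -0.66 ± 0.26 (0.23).

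Dyrk1a, a kinase that phosphorylates NFAT and splicing factors, had signals of 682, 720.4, 655, 678 and 700.4 on ISCH arrays, 1025, 1005, 1009, 1198 and 771 on IPC arrays and 872, 1036, 1117, 946 and 1067 on APC arrays, all 10 above all 5. Its change was 0.51 ± 0.12 (adjusted p = 0.0369), and 0.25 with the spike covariate (limma unadjusted p = 0.107). G3bp2, an RNA-binding protein of stress granules, had 248, 195, 226, 192 and 245 on ISCH arrays and 272 to 491 on preconditioned arrays, again without overlap, and rose by 0.77 ± 0.18 (adjusted p = 0.0287), or by 0.50 with the spike covariate. Cdc42ep3, an effector of the small GTPase Cdc42, had 332, 542, 451, 448 and 436 on ISCH arrays and 569 to 978 on preconditioned arrays, and rose by 0.67 ± 0.16 (adjusted p = 0.0369). These 3 were the called genes whose preconditioned signals all lay above all ISCH signals, where 14 of all 3155 genes did (0.444%). The call of Cdc42ep3 ended in 10 of the 15 fits with 1 array missing, among them that without ISCH 1 (0.55).

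Pla2g5, a secreted phospholipase A2 found in heart, had 288, 319, 188, 489.5 and 260.3 on ISCH arrays, 463, 578, 519, 514 and 298 on IPC arrays and 579, 529, 442, 633 and 524 on APC arrays. ISCH 4 lay among the preconditioned arrays and IPC 5 among the ISCH arrays. It rose by 0.78 ± 0.18 (adjusted p = 0.0369), to 508 ± 92.3 (SD, n = 10) beside 547 ± 85.5 in CTL hearts. Ptpn3, a cytoskeleton-associated tyrosine phosphatase, rose by 0.66 ± 0.16 (adjusted p = 0.0369), from 798 ± 102 on ISCH arrays to 1328 ± 284. Cnksr3, a scaffold of kinase signalling, rose by 0.77 ± 0.18 (adjusted p = 0.0369), from 254 ± 40.7 to 445 ± 164. Ccdc117, a coiled-coil protein, had 505, 362, 426, 389 and 373 on ISCH arrays, 667, 677, 707, 661 and 521 on IPC arrays and 568, 609.7, 539.8, 456 and 501 on APC arrays. Its change was 0.53 ± 0.13 (adjusted p = 0.0403), and ISCH 1 and APC 4 and 5 were the arrays that overlapped.

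Anxa1, annexin A1, which binds membrane phospholipids and limits neutrophil entry, passed on a dimmer probe set and is named after its values were seen. On it ISCH arrays had 189, 102, 170.1, 235 and 285, IPC arrays 485, 798, 545, 899.7 and 415 and APC arrays 302, 307, 275, 301 and 373. The IPC arrays were all above every ISCH array, while the APC arrays overlapped ISCH 5 only. The pooled change was 1.21 ± 0.24 (2.31-fold, adjusted p = 0.0132), made of 1.65 for IPC and 0.76 for APC. The brighter probe set gave 0.31 ± 0.16 (adjusted p = 0.382), with IPC at 866 ± 284, APC at 511 ± 61.5 and ISCH at 528 ± 53.5, so there the difference lay on the IPC arrays. Pam, which amidates peptide hormones and is abundant in heart muscle, also passed on 1 dimmer probe set (0.74 ± 0.19, adjusted p = 0.0451), while its brightest gave 0.08 ± 0.13.

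Pooling the groups raises the question whether the 2 kinds of preconditioning differed. The direct comparison of IPC with APC takes its estimate from no ISCH array. ISCH arrays still enter its p-values through the shared normalisation and estimate of spread. There limma called 0 of 5244 probe sets (0%), and 137 had an unadjusted p under 0.05 (2.61%). Among the 44 probe sets called in the pooled comparison 0 passed and 2 had an unadjusted p under 0.05: Anxa1, at 0.90 ± 0.28 (limma unadjusted p = 0.0027), and Nrp1, at 0.54 ± 0.20 (0.0129). The median size of the IPC minus APC difference was 0.17 over the 44 and 0.14 over all probe sets. Notch1 differed by 0.15 ± 0.19, Col5a1 by -0.18 ± 0.20 and Fdft1 by -0.51 ± 0.47. With 5 arrays a group such differences cannot be told from 0. Differences larger beside their SE missed the adjusted threshold too, such as that of Nrp1 (limma adjusted p = 0.9996). The 0 calls thus do not show that IPC and APC were alike. The smallest p in each direction, none past the adjusted threshold, belonged to Ttn (titin, 1.28 ± 0.38) and the brightest Anxa1 probe set (0.66 ± 0.19), higher in IPC, and to Pnmt, which methylates noradrenaline to adrenaline (-1.47 ± 0.28, adjusted p = 0.0697), and Ppp1r10 (-0.72 ± 0.22), lower in IPC. With a stricter filter, the deposited scale or array weights, or without ISCH 2, ISCH 4, ISCH 5 or APC 3, 1 probe set was called.

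**Figure D4:**
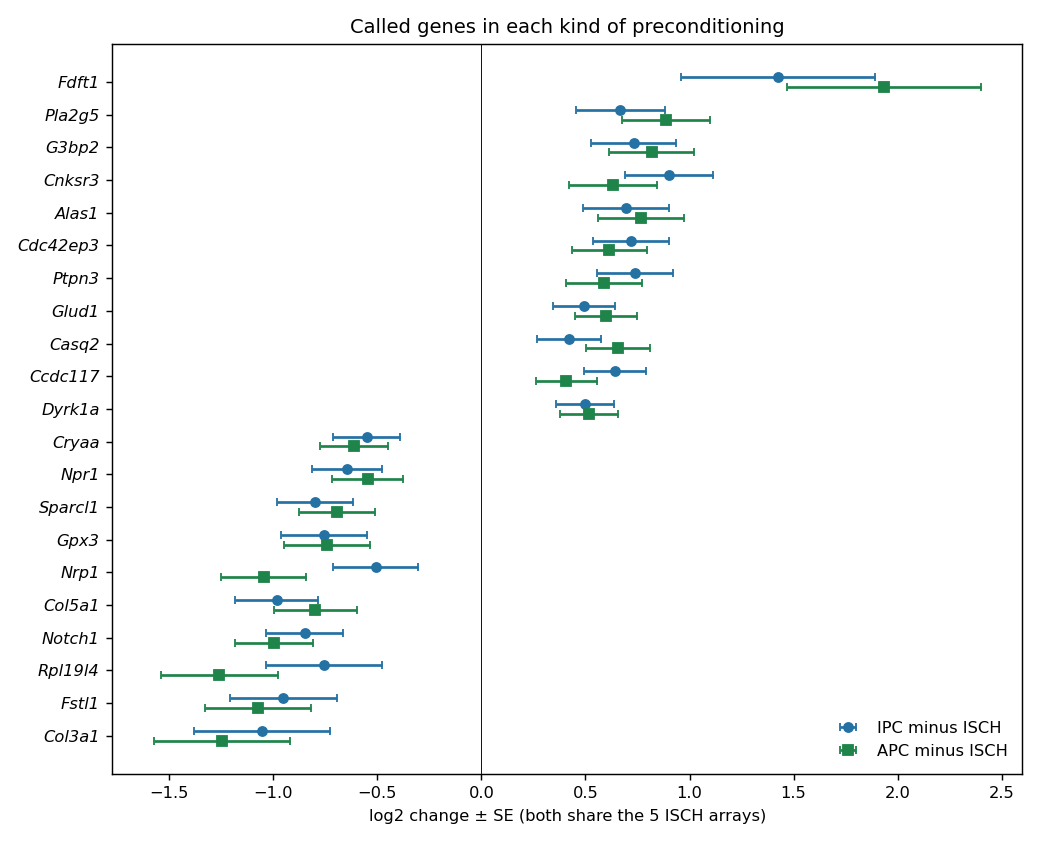
Change of each of the 21 called genes in IPC minus ISCH (blue circles) and APC minus ISCH (green squares), log2 with the SE as bars. The 2 comparisons share the ISCH arrays; Fdft1 has the widest bars, and Nrp1 changed by -0.51 in IPC and -1.05 in APC.

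Levels were next set beside hearts without ischaemia. On average CTL arrays were nearer the preconditioned than the ISCH arrays in spike signal (10.75 ± 0.69 SD). The same held for the share of signal in the brightest 1% of probe sets (30.2 ± 3.19%). A gene level near CTL after preconditioning, here or above, cannot be told apart from this likeness of the arrays. After preconditioning 2 of the 21 genes differed from CTL (4.56% of all 3155 genes did, 1.65% upward): Ccdc117 by 0.98 ± 0.13 (limma adjusted p = 1.71e-06) and Cdc42ep3 by 0.64 ± 0.16 (adjusted p = 0.00968), both higher. For Ccdc117 CTL signals were 291, 310.4, 307, 290.4 and 268, below all 15 ischaemic arrays. The dimmer Anxa1 probe set was also above CTL, by 1.44 ± 0.24 (adjusted p = 6.7e-05). In unprotected ischaemia 17 of the 21 differed from CTL (8.3% of all genes), but ISCH arrays are part of both comparisons, so nothing is read from that count. Values side by side were, as ISCH minus CTL and preconditioned minus CTL, 0.91 and -0.01 for Notch1, 1.14 and 0.25 for Col5a1, 1.34 and 0.57 for Nrp1, and -0.85 and -0.31 for Casq2. A p that misses the threshold does not show that preconditioned hearts were at CTL levels.

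The trigger groups share no array with the pooled comparison, but both comparisons come from the same fit. In them, IPC_TRI and APC_TRI pooled against CTL, 6 of the 21 genes were called where 520 of all 3155 genes were (16.5%), and all 6 were lower than in CTL (281 of all genes, 8.91%). They were Fdft1 (-1.63 ± 0.40), Rpl19l4 (-1.17 ± 0.24), Alas1 (-0.93 ± 0.18), G3bp2 (-0.85 ± 0.18), Col3a1 (-0.83 ± 0.28) and Glud1 (-0.46 ± 0.13). Fdft1, Alas1, G3bp2 and Glud1 were thus lower after a trigger alone and higher in preconditioned than in unprotected ischaemia. Notch1 gave 0.09 ± 0.16 and Col5a1 0.34 ± 0.17, neither past the threshold.

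Genes of stress, inflammation and survival, which preconditioning is often studied for, held 0 calls in this comparison. Of all 3155 genes 0.666% were called, so 0 calls in lists this short does not set them apart. Of 42 immediate early genes tested 0 passed, with 29 above 0 and a median of 0.21. Rhob, a small GTPase, gave 0.45 ± 0.12 (adjusted p = 0.076), Zfp36, which destabilises cytokine messages, 0.64 ± 0.19 (0.0906), and Junb, a subunit of AP-1, 0.69 ± 0.21 (0.103). Without IPC 5 Zfp36, Rhob, Junb and Cebpb were called higher, 4 of 42 beside 1.33% of all genes. Without ISCH 1 0 of the 42 were called, and without both arrays 2, Zfp36 and Junb, beside 1.05% of all genes. Of 36 cytokine, chemokine and adhesion genes 0 passed (median 0.04), with the chemokine receptor Cxcr4 at -0.48 ± 0.12 (adjusted p = 0.0535) and the cytokine Lif at -1.06 ± 0.34 (0.123). Of 25 interferon-induced genes 0 passed (median -0.04, which turned to 0.07 after median centring); their medians against CTL were -1.28 in ISCH and -1.48 in preconditioned hearts, and those of the cytokine list -1.13 and -0.996.

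Other lists had medians close to that of all genes. Of the 35 lists, 23 had a median that changed sign in at least 1 alternative, so no direction is read from those. The 50 genes of preconditioning signalling gave 0.02 with 0 calls, with Mapk9, the kinase JNK2, at 0.91 ± 0.27 (adjusted p = 0.097) and the beta-1 adrenoceptor Adrb1 at 0.92 ± 0.30 (0.133). The 16 apoptosis genes gave 0.0048, the 13 of endoplasmic reticulum stress 0.04, the 27 of proteasome and ubiquitin 0.06 with Ube2d2 at 0.60 ± 0.15 (adjusted p = 0.0505), and the 26 sarcomere genes 0.08, which turned to -0.12 on the deposited scale, each with 0 calls. The 29 fetal and hypertrophy genes gave -0.02 with 0 calls, with Igf1 at -0.77 ± 0.22 (adjusted p = 0.0802) and Igf2 at -0.51 ± 0.15 (0.0943), both growth factors of the mesenchyme. The 9 genes of catecholamine synthesis and breakdown gave -0.07 with 0 calls, with Maoa, which degrades monoamines, at 0.71 ± 0.22 (adjusted p = 0.109).

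**Figure D5:**
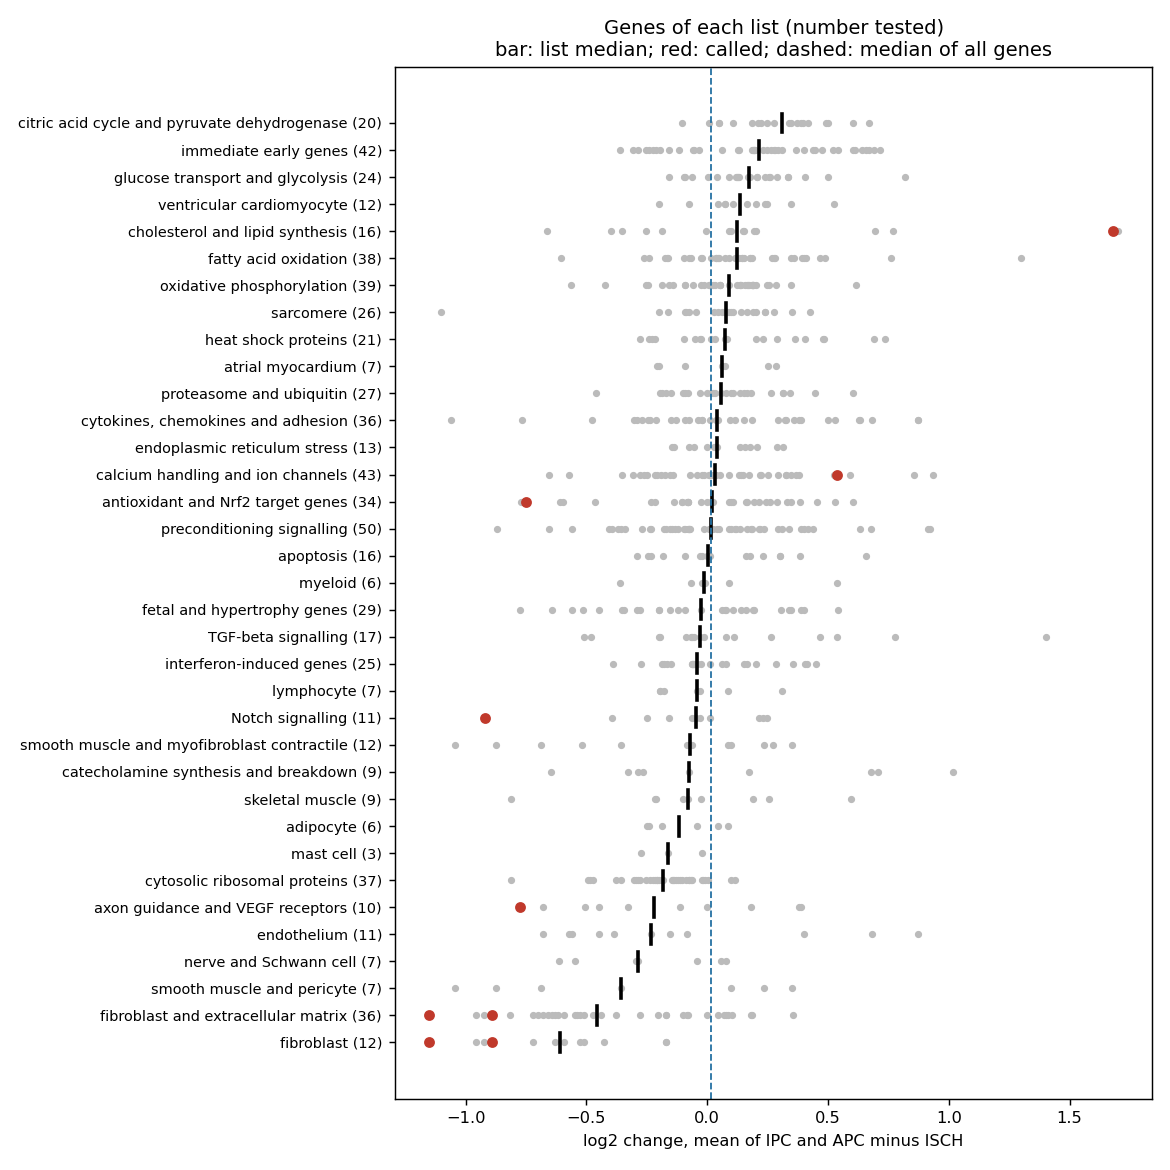
Change of each tested gene (log2, mean of IPC and APC minus ISCH) in 24 process lists and 11 cell type marker lists, with the number tested in brackets, the list median as a bar, called genes in red and the median of all 3155 genes as a dashed line. The 2 fibroblast lists have the lowest medians (-0.61 and -0.46) and the citric acid cycle list the highest (0.31).

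Markers of cells other than fibroblasts held 0 calls, beside 0.666% of all genes, and in lists this short 0 calls does not set them apart. Medians were -0.23 over 11 endothelial markers, -0.36 over 7 of smooth muscle and pericytes, -0.29 over 7 of nerve and Schwann cells, -0.12 over 6 of adipocytes and -0.08 over 9 of skeletal muscle. They were -0.16 over 3 mast cell markers, -0.04 over 7 of lymphocytes, -0.01 over 6 of myeloid cells and 0.06 over 7 of atrial myocardium. The medians of adipocytes (0.01 after median centring), mast cells (0.07 without IPC 5 and ISCH 1), lymphocytes (0.07 without ISCH 1) and atrial myocardium (-0.14 without ISCH 4) changed sign, as did those of myeloid cells and skeletal muscle. Those of endothelium, of smooth muscle and pericytes and of nerve and Schwann cells stayed below 0 in every alternative. Within the endothelial list the adhesion molecules Selp and Sele gave 0.68 ± 0.24 (adjusted p = 0.158) and 0.87 ± 0.37 (0.26), while the VEGF receptor Flt1 gave -0.68 ± 0.32 (0.316). Of 13 myeloid and 16 lymphocyte markers on the array 6 and 7 passed the filter on low values.

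The threshold fell within a run of like values. Just inside it lay Col3a1, Npr1, Alas1 and Casq2, all with an adjusted p of 0.0417, and just outside, between 0.05 and 0.06, lay 9 genes. Of these Ube2d2, Slc16a1, Mrpl3 and Pfkm had changes of 0.60, 0.82, 0.58 and 0.41, and Rpl17, P3h4, Agrn, Nfix and Cxcr4 changes of -0.81, -0.69, -0.66, -0.50 and -0.48. Agrn, the proteoglycan agrin, and P3h4, which takes part in collagen modification, are matrix-related genes outside the list, picked out after their values were seen. Against CTL, P3h4 changed by 0.74 in ISCH and 0.05 in preconditioned hearts. Agrn did not follow that order, with -0.29 and -0.95.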

How the data were processed

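The authors deposited linear intensity values, a single value for each probe set on each array. Per the labels RNA was handled by the array maker's standard procedures. The software that made them is not given in the sources used here. Their trimmed mean was 500.81 to 501 on every array, so they had been scaled, while the medians of the 15 arrays compared ran from 114.6 to 155. Correlations between these arrays were 0.888 to 0.976, and 0 pairs were identical. Depth has no meaning for arrays; the 5 arrays per group limit the precision.

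Of 8799 probe sets 59 AFFX controls were left out of the tests. Of the 8740 others 7006 had 1 gene symbol in the platform annotation, 308 several and 1426 none; symbols were checked against RefSeq through 6985 gene identifiers and 0 changed. The deposited intensity values were transformed as log2(signal + 16) and quantile normalised over all 30 arrays, and the dimmest 40% of probe sets by mean were dropped, leaving 5244. A mean for each group was estimated in limma 3.58.1 (R 4.3.3; eBayes with trend = TRUE), with contrasts taken from that fit and called at a Benjamini-Hochberg adjusted p under 0.05. A gene is its probe set with the highest mean. Every called gene was named (up to 12 per direction), with up to 3 genes of smallest p from each list described and, for IPC against APC, 2 per direction. Array quality was compared by exact permutation tests. The code was tested on simulated data. The comparison, the gene lists and the cell type markers were chosen with earlier results of these data known. Nothing in the labels says that the biological replicates were handled independently after collection.

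Alternatives were other pseudocounts (1 and 64), filters, scalings, fits and covariates, the replicate number as a block, and leaving out each array. The labels do not state that the letters a to e pair the arrays. Over 15 pairs of same-numbered arrays the correlation of their deviations from the group means was -0.10 to 0.21, above 0.1 in 2. Its median was -0.02, beside 0.01 for other pairs. A pairing that touches only some probe sets was not tested.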

Additional observations from a re-analysis of the deposited data

Results flagged for a closer look

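Single arrays lay far from the other 4 of their group in 18 of the 168 groups of 5 examined by Dixon's test at its 95% limit; chance gives about 1 in 20. IPC 5 was the array in 7 of the 18. Values are log2(signal + 16) after quantile normalisation for genes and the list score relative to CTL for lists.

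IPC 5 was high for Col5a1 (10.54) and Npr1 (9.38) and low for Pla2g5 (8.30), Alas1 (10.31) and Ccdc117 (9.05). It was also high in the score of fibroblast and matrix genes (0.50) and of fibroblast markers (0.98). In each case it lay toward or within the ISCH arrays' values.

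Among the ISCH arrays, ISCH 3 was high for Notch1 (10.46), ISCH 2 high for Fdft1 (8.34) and low in the matrix score (-0.047), ISCH 1 high in the Notch list (0.24) and low in preconditioning signalling (-0.31), and ISCH 4 high in the endothelial markers (0.44). Elsewhere APC 4 was low for Gpx3 (11.06), APC 5 high in interferon-induced genes (-1.41, the others -1.90 to -1.79) and low in the sarcomere list (-0.22), IPC 2 in the antioxidant list (-0.21), and APC 3 in the apoptosis list (-0.10).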

How the results depend on the processing

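Against 44 called probe sets and 21 genes (IPC minus APC: 0 probe sets), no filter gave 21 and 5, a 60% filter 67, 39 and 1, the deposited scale 97, 51 and 1, array weights 399, 231 and 1, the spike covariate 0 and 0, leaving out IPC 5 and ISCH 1 112 and 63, and median centring 35 genes. Leaving out 1 array gave 4 to 163 probe sets, 1 to 88 genes and 0 to 1 for IPC minus APC. The cause of these shifts was not tested, except that a filter changes how many probe sets are tested (8740 with none, 3496 with 60% dropped). The replicate number as a block gave 48 probe sets and 25 genes, 39 of the 44 among them. For the 42 called probe sets followed through each fit, 346 of 630 values with 1 array left out and 447 of 586 under other settings stayed past the threshold. The rest missed it and 0 reversed. These probe sets were chosen on the same arrays, so the absence of reversals is no separate support. Low signal limits what the filter admits: 3496 of 8740 probe sets were not tested.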
